A study of Bos indicus x Bos taurus with 20 samples.

Results

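Histone acetylation is set by enzymes that write the mark, enzymes that erase it and proteins that read it, and 38 bovine genes of these kinds were followed through early embryos. They were taken by name as the HDAC and SIRT deacetylases, the KAT acetyltransferases with EP300, CREBBP and the coactivators NCOA1, NCOA2 and NCOA3, and the numbered BRD genes, most of which encode bromodomain readers. They make up 38 of 30675 genes in the count table, and all 38 were among the 16149 genes that passed the filter on low counts.

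Libraries were made from WT embryos of Bos indicus x Bos taurus whose zygotes had received METTL7A mRNA or vehicle (called Control here). The 4 groups were METTL7A 8-cell, Control 8-cell, METTL7A 2-cell and Control 2-cell embryos, with 2 libraries each. METTL7A, also known as TMT1A, is a thiol methyltransferase bound to membranes, and the study asked how its supply to the zygote affects the embryo. Since no group was given a different mRNA, an effect of METTL7A and one of any injected mRNA cannot be told apart. Nothing in the labels says that the replicates are separate embryo pools, and the p-values therefore reflect only how these libraries spread, which may be technical. Libraries of the blastocyst were not used here.

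Acetyl groups on histone tails loosen the hold of nucleosomes on DNA and are read by bromodomains, which bring transcription factors and polymerase to active genes. Acetyltransferases take the acetyl group from acetyl-CoA. The zinc-dependent HDAC enzymes remove it by hydrolysis, while sirtuins consume NAD. The early embryo lives on transcripts stored in the oocyte, and in cattle its own genome becomes strongly transcribed around the 8-cell stage.

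Total gene counts ran from 15781017 to 20737404 per library, and 17914 to 20242 genes had at least 1 count. METTL7A itself stood at 18748 and 38113 CPM (read counts scaled to the size of each library) in METTL7A 8-cell embryos against 7.36 and 7.57 CPM in Control 8-cell embryos. At the 2-cell stage it stood at 47718 and 42836 CPM with METTL7A and at 19.1 and 14.2 CPM in Control. The 12 oocyte transcripts used as markers were each at 1 CPM or more in all 8 libraries. Of 10 genes of embryonic genome activation, 6 were in the table, and their summed level was 2016 to 11574 CPM in the 8-cell libraries and 79.4 to 98.3 CPM in the 2-cell libraries. Both Control 8-cell libraries stood apart, replicate 1 the most by summed level. In Control 8-cell replicate 1 the 15 cumulus and somatic cell markers summed to 6493 CPM. The sum was 1235 CPM in Control 8-cell replicate 2 and 222 to 501 CPM in the 6 other libraries. LUM, a matrix gene of connective tissue, reached 4782 and 667 CPM in the Control 8-cell pair and at most 1.51 CPM elsewhere. It made up most of both Control 8-cell sums. Not all of the 15 markers followed it. POSTN (120 and 188 CPM) and DCN (41.6 and 56.3 CPM) were higher in replicate 2 of the Control 8-cell pair. HAS2, STAR and FBN1 were each higher in every 2-cell library than in any 8-cell library. They made up most of the sum in the 6 other libraries. In whole embryos, fewer cells of a type and less RNA per cell cannot be told apart. CPM values are not divided by transcript length, so levels are compared between libraries of a gene and not between genes.

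**Figure D1:**
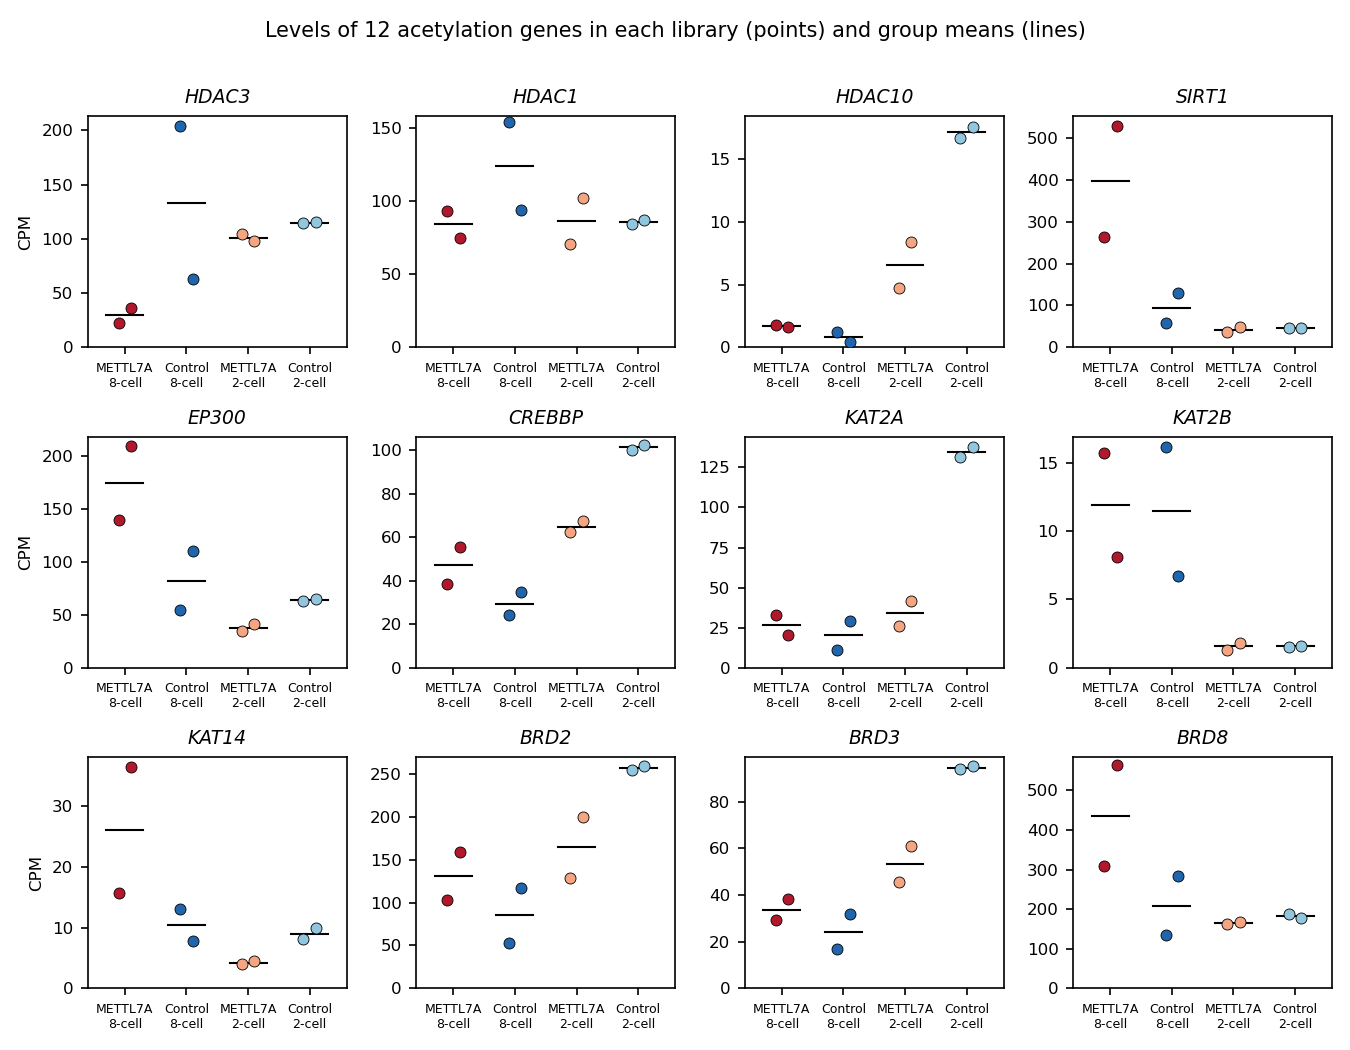
Levels of 12 of the genes in TMM-scaled CPM on linear axes that start at 0, with 1 panel per gene, 1 point per library and a line at each group mean, METTL7A left of Control at each stage. Except for HDAC10, the Control 2-cell libraries form closer pairs than those of the Control 8-cell group, where HDAC3 for example had 204 and 62.6 CPM. The METTL7A 2-cell pair is wider than the Control 8-cell pair for HDAC10, BRD2 and BRD3.

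The comparison of METTL7A with Control at the 8-cell stage asks which acetylation genes differ where the embryonic genome is active. One deacetylase was higher and another lower. SIRT1, an NAD-dependent nuclear deacetylase of histones and of stress-response factors such as p53, rose, and HDAC3, the catalytic subunit of the NCoR and SMRT corepressor complexes, fell. The other 36 genes did not pass an adjusted p of 0.05 in the edgeR quasi-likelihood test. Over all genes, 0.737% were called higher and 4.55% lower (5.29% in either direction), so 2 of 38, or 5.26%, is close to the background.

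SIRT1 stood at 264 and 528 CPM in METTL7A 8-cell embryos, against 58.3 and 130.1 CPM in Control 8-cell embryos. Both METTL7A libraries lay above both Control libraries, although each pair differed within itself by more than 1.5 times. The log2 fold change was 2.07 ± 0.45 (SE, adjusted p = 0.0403). HDAC3 stood at 22.8 and 36.1 CPM in METTL7A 8-cell embryos and at 204 and 62.6 CPM in Control 8-cell embryos. Both METTL7A libraries were below both Control libraries, and the higher Control value was in replicate 1. Its log2 fold change was -2.18 ± 0.51 (adjusted p = 0.0449).

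Both calls were near the threshold. With Control 8-cell replicate 1 left out, HDAC3 had a log2 fold change of -1.09 (adjusted p = 0.0906) and SIRT1 one of 1.60 (adjusted p = 0.0849). Without Control 8-cell replicate 2 they were -2.77 (adjusted p = 0.000143) and 2.79 (adjusted p = 0.00143). Leaving out METTL7A 8-cell replicate 1 gave adjusted p = 0.207 for HDAC3 and 0.172 for SIRT1, and leaving out METTL7A 8-cell replicate 2 gave 0.308 for both. Without 1 or the other METTL7A 2-cell library the adjusted p was 0.106 for HDAC3 in each case, and 0.0987 and 0.0978 for SIRT1. With only the 8-cell groups in the model neither gene was called (adjusted p = 0.102 for HDAC3 and 0.108 for SIRT1, with 1.88% of all genes called), and DESeq2 size factors in edgeR gave 0.0520 for HDAC3. The DESeq2 test called both, and 14.6% of all genes.

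Other features of the libraries moved with these values. The genome activation markers summed to 8777 and 11574 CPM in METTL7A 8-cell embryos, against 2016 and 6384 CPM in Control, and the order of the 4 libraries was the same as for SIRT1. The 12 oocyte transcripts summed to 43408 and 41823 CPM in METTL7A 8-cell embryos, against 14781 and 28109 CPM in Control, so that Control replicate 1 was lowest here too. BTG4 made up most of each sum, with 28056 and 27158 CPM with METTL7A and 10069 and 15972 CPM in Control. ZP2, ZP4, ZAR1 and DPPA3 were, like BTG4, higher in both METTL7A libraries. GDF9, BMP15, ZP3, NLRP5, OOEP, MOS and KPNA7 overlapped between the groups. Somatic markers summed to 222 and 245 CPM in METTL7A 8-cell embryos and to 6493 and 1235 CPM in Control, in the order of HDAC3. Of the 15 markers, 14 and 13 were at 1 CPM or more in the Control 8-cell libraries, while 12 and 11 were so in the METTL7A 8-cell libraries, where CYP11A1 was at 0 in replicate 2. The part of these markers in the SIRT1 and HDAC3 results was not tested.

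Around HDAC3, the other class I deacetylases did not pass the test at the 8-cell stage. HDAC1 and HDAC2 are the catalytic pair of the NuRD, Sin3 and CoREST complexes. HDAC1 had 93.4 and 74.6 CPM with METTL7A and 154 and 93.4 CPM in Control (log2 fold change -0.56, adjusted p = 0.308). HDAC2 had 82.1 and 78.9 CPM with METTL7A and 139 and 62.4 CPM in Control. Its groups overlapped, and the log2 fold change of -0.32 (adjusted p = 0.597) turned to 0.36 without Control 8-cell replicate 1. HDAC8, a class I enzyme known for deacetylating the cohesin subunit SMC3, had a log2 fold change of -0.22 (adjusted p = 0.659). Among sirtuins, the cytoplasmic deacetylase SIRT2 stood at 4.73 and 10.3 CPM with METTL7A and 33.9 and 9.57 CPM in Control (adjusted p = 0.17), and the high value was again in Control replicate 1.

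The writers did not pass the test at the 8-cell stage either. EP300, the p300 acetyltransferase of enhancers, had 139.9 and 210.0 CPM with METTL7A and 54.4 and 110.1 CPM in Control. Its groups did not overlap, and the log2 fold change was 1.09 ± 0.38 (adjusted p = 0.112). Its paralogue CREBBP had 38.7 and 55.6 CPM with METTL7A and 24.1 and 34.7 CPM in Control (log2 fold change 0.68, adjusted p = 0.199). KAT14, a subunit of the ATAC coactivator complex, had 15.7 and 36.5 CPM with METTL7A and 13.0 and 7.81 CPM in Control. Its groups did not overlap, and the log2 fold change was 1.32 ± 0.49 (adjusted p = 0.131). KAT2A, the GCN5 enzyme of the SAGA and ATAC complexes, had 32.9 and 20.8 CPM with METTL7A and 11.4 and 29.4 CPM in Control, which overlap.

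None of the 5 MYST enzymes passed the test at the 8-cell stage. KAT5, the TIP60 enzyme of the NuA4 complex, had 17.3 and 23.3 CPM with METTL7A and 18.0 and 16.2 CPM in Control, which overlap. KAT8, the MOF enzyme that acetylates histone H4, had 33.8 and 53.9 CPM with METTL7A and 30.0 and 27.3 CPM in Control. The log2 fold changes were 0.24 for KAT5 and 0.62 for KAT8, with adjusted p-values of 0.642 and 0.294. BRD8, a reader and a subunit of the TIP60 complex, had a log2 fold change of 1.06 ± 0.41 (adjusted p = 0.143).

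Counted over all 38 genes at the 8-cell stage, 11 had both METTL7A libraries above both Control libraries (28.9%, against 28.1% of all genes) and 5 had both below (13.2%, against 22.4%). The median log2 fold change was 0.29 for the 38 genes and 0.14 for all genes tested. Relative to the all-gene median, 23 of the 38 were above it, and 23 were also above it with DESeq2 size factors, with the DESeq2 test and with the injected transcript left out of the library sizes. That last scaling moved the all-gene median from 0.14 to -0.09.

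**Figure D2:**
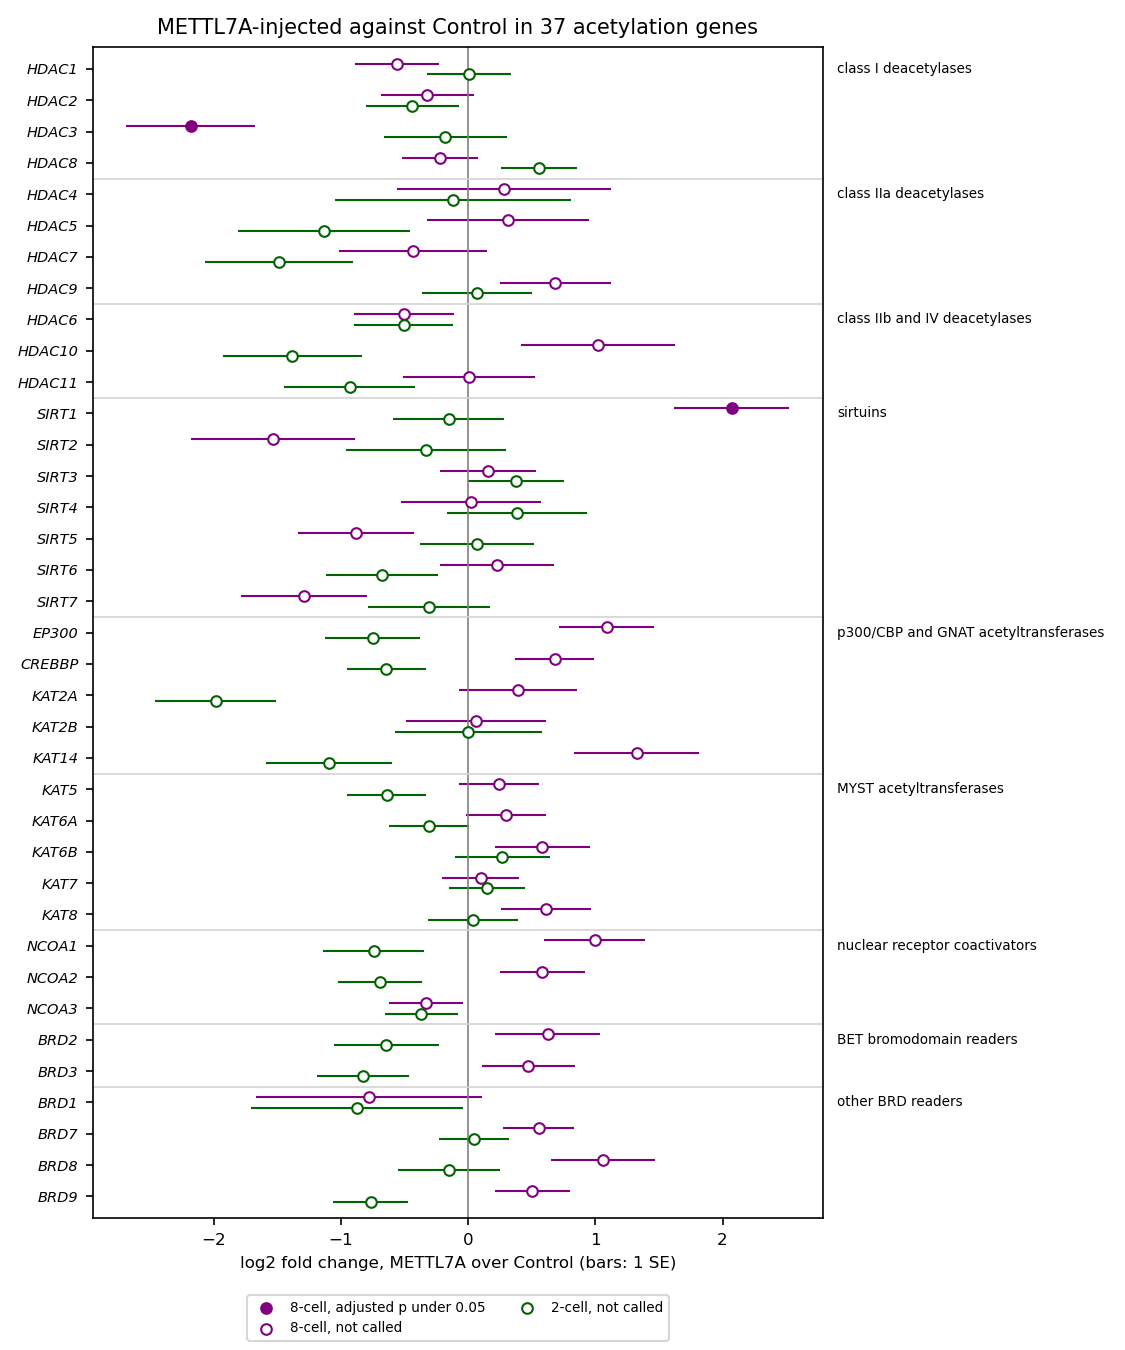
Log2 fold change of METTL7A over Control for 37 of the genes at the 8-cell stage (upper point of each pair) and at the 2-cell stage (lower point), with bars of 1 SE and filled points for an adjusted p under 0.05. Only HDAC3 (-2.18) and SIRT1 (2.07) at the 8-cell stage are filled, and 26 of 37 points of the 2-cell stage lie below 0.

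The comparison of METTL7A with Control at the 2-cell stage asks whether acetylation genes already differ before the major activation of the embryonic genome. None of the 38 was called by edgeR, where 0.0124% of all genes were called (2 genes, both higher). These were METTL7A itself (log2 fold change 11.4) and LOC781439 (11.6), each with adjusted p = 0.000184. LOC781439 had 2573 and 2117 CPM with METTL7A and 0.619 and 0.909 CPM in Control. With both left out of the counts, 0 genes were called. At an unadjusted p under 0.05 there were 6, all lower with METTL7A, or 15.8% of the 38 against 5.49% of all genes lower at that level. Among them were the acetyltransferase KAT2A, the readers BRD3 and BRD9, and the deacetylases HDAC7 and HDAC10, with log2 fold changes of -1.98, -0.82, -0.77, -1.49 and -1.38. Their adjusted p-values ran from 0.474 to 0.665.

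KAT2A had 26.2 and 41.9 CPM in METTL7A 2-cell embryos, against 132 and 138 CPM in Control 2-cell embryos. HDAC7, a class IIa deacetylase that represses transcription together with HDAC3-containing complexes, had 39.0 and 37.8 CPM with METTL7A and 102 and 113 CPM in Control. In both genes the METTL7A pair lay below the Control pair with a wide gap. The DESeq2 test called KAT2A alone among 37 members with an adjusted p (-1.96, adjusted p = 0.0121), with 1.08% of genes called in either direction. In edgeR, 2 of the 38 were called without Control 8-cell replicate 1 and 2 without Control 8-cell replicate 2, all lower, where 0.243% and 0.16% of all genes were called lower.

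The number of calls depended on the libraries in the fit. A model of only the 2-cell groups called 9 of 37 members lower and 0 higher, or 24.3% against 5.03% of all genes lower in that fit. Among them were KAT2A, HDAC7, HDAC10, KAT14, HDAC11, BRD9, EP300 and NCOA2. The Control 2-cell pair differed far less than the other pairs (chi-square per degree of freedom of 2.48, against 45.5 in the METTL7A 2-cell pair).

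Over all 38 genes at the 2-cell stage, 23 had both METTL7A libraries below both Control libraries (60.5%, against 30.5% of all genes) and 5 had both above (13.2%, against 26.9%). The median log2 fold change was -0.40 for the 38 genes and 0 for all genes. It was below 0 in 27 of the 38, and in 27 or 28 under the 3 other scalings. The 3 class IIb and IV deacetylases, the 3 coactivators and the BET readers BRD2 and BRD3 had negative values throughout.

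Of the core genes, some lay lower with METTL7A and others overlapped. EP300 had 34.8 and 41.3 CPM in METTL7A 2-cell embryos and 63.1 and 65.0 CPM in Control, and CREBBP had 62.2 and 67.4 CPM with METTL7A and 100.1 and 102 CPM in Control, both without overlap. KAT5 had 31.7 and 29.6 CPM with METTL7A and 48.2 and 47.4 CPM in Control, again without overlap. HDAC1 had 70.5 and 102 CPM with METTL7A and 84.2 and 87.0 CPM in Control, and KAT8 had 26.1 and 18.7 CPM with METTL7A and 23.5 and 20.2 CPM in Control. Both pairs of groups overlap. HDAC2 had 60.9 and 63.4 CPM with METTL7A and 83.0 and 85.5 CPM in Control. For HDAC3 the values were 105 and 97.6 CPM with METTL7A and 114 and 115 CPM in Control. SIRT1 had 36.5 and 47.6 CPM with METTL7A and 47.2 and 46.4 CPM in Control, with overlap. The adjusted p-values of these 8 genes ran from 0.713 to 1.

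Comparing 8-cell with 2-cell embryos asks how the acetylation genes change over genome activation. The libraries were of polyA RNA and CPM is scaled to library size, so a rise or fall is in a share of that RNA. Amounts per embryo and poly(A) tail lengths were not measured. In Control embryos far more of these genes were called lower at the 8-cell stage than higher, although their signs were nearly balanced. The log2 fold change was below 0 in 21 and above 0 in 17, and 19 and 19 with DESeq2 size factors. Over all 16149 genes it was below 0 in 7529 and above 0 in 8617. Of the 38 genes, 16 were lower at the 8-cell stage, 1 was higher and 21 did not pass the test, or 42.1% lower and 2.63% higher against 22.8% and 29.9% of all genes. KAT2B, the PCAF acetyltransferase and paralogue of KAT2A, was the gene that rose, while KAT2A fell, as did the BET readers BRD2 and BRD3. The median log2 fold change was -0.13 for the 38 genes and 0.18 for all genes tested, and the gap between these medians stayed between -0.31 and -0.30 in all 4 scalings. Without Control 8-cell replicate 1 the counts were 16 lower and 4 higher, with 23.7% of all genes lower and 27.2% higher. Leaving out Control 8-cell replicate 2 gave 19 lower and 9 higher, with 28.1% of all genes lower and 33.5% higher. Somatic markers summed to 6493 and 1235 CPM in the Control 8-cell and to 500.0 and 501 CPM in the Control 2-cell libraries. Most of the 2-cell sums came from HAS2, STAR and FBN1, which were lower in Control 8-cell embryos. LUM was at most 0.784 CPM in Control 2-cell embryos. The part of these markers in the stage changes was not tested.

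In METTL7A embryos 7 of the 38 were higher at the 8-cell stage, 6 were lower and 25 did not pass the test. This is 18.4% higher and 15.8% lower, against 23.1% and 17.1% of all genes. SIRT1, KAT2B, HDAC5, KAT14, EP300, BRD8 and KAT6A rose, and BRD1, HDAC10, HDAC3, KAT7, HDAC7 and NCOA2 fell. Neither BRD2 nor BRD3 was called. With the injected transcript left out of the library sizes the split was 6 higher and 10 lower, and that of all genes 20.3% and 22.4%. The count was 8 without METTL7A 8-cell replicate 1 (26.1% of all genes called) and 5 without METTL7A 8-cell replicate 2, METTL7A 2-cell replicate 1 or METTL7A 2-cell replicate 2 (21.8%, 22.7% and 18.7% of all genes). Whether the stage change differs between treatments is the same contrast as the difference of the METTL7A effect between stages, which is given further on and called none of the 38. The Control 2-cell and Control 8-cell libraries enter both the stage comparison and the METTL7A comparisons.

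**Figure D3:**
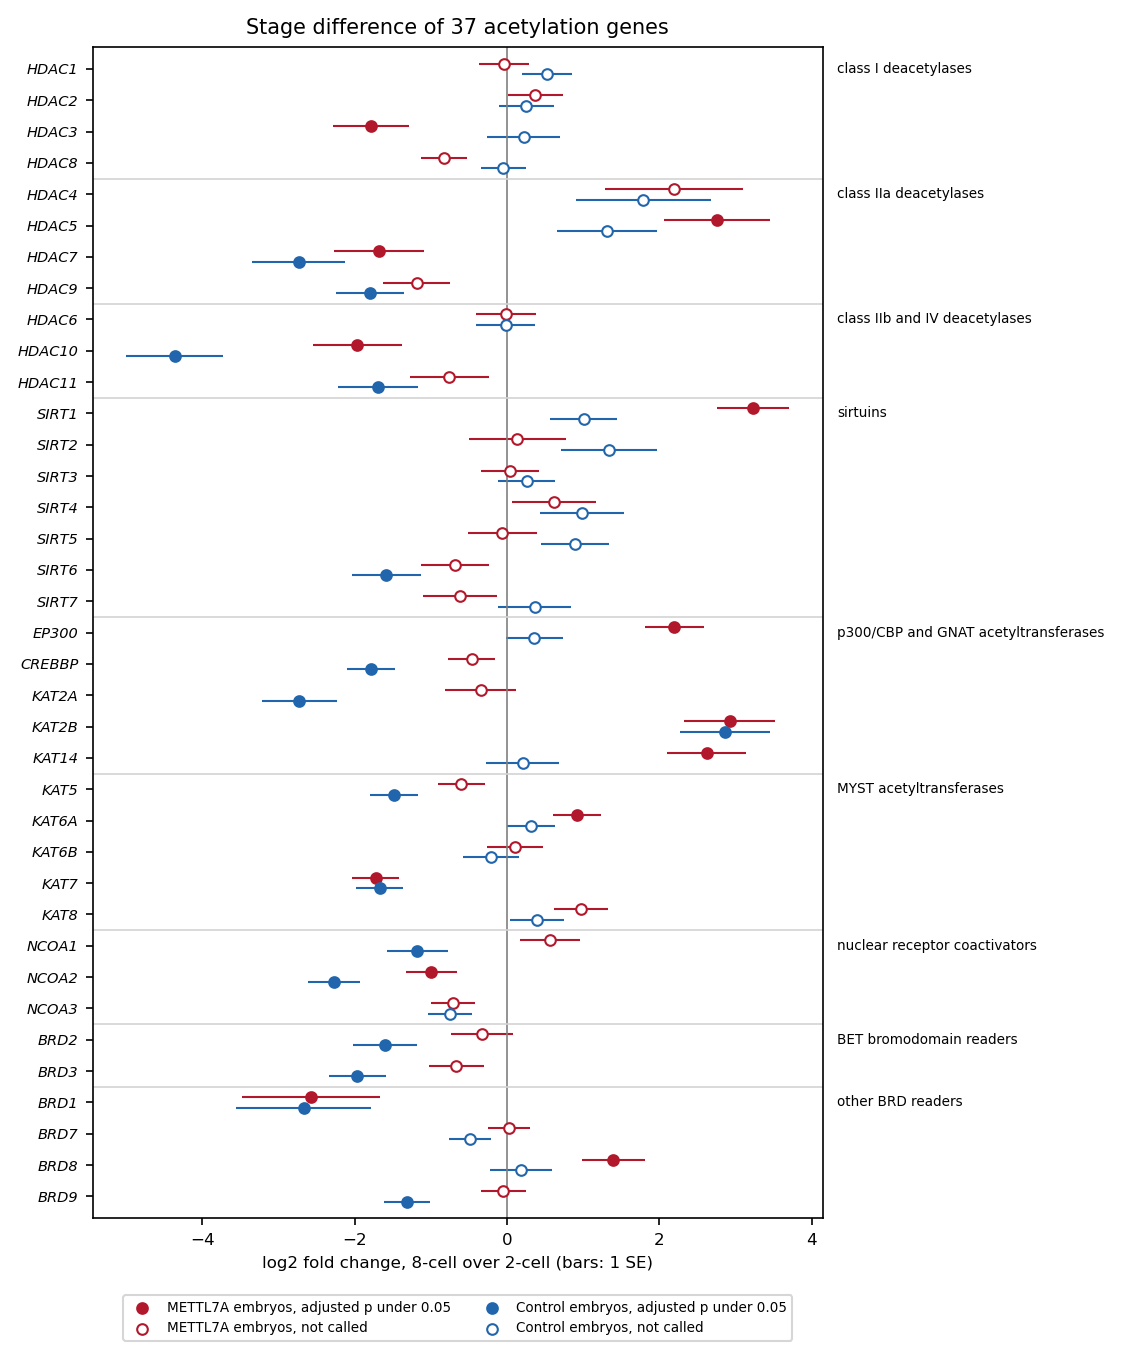
Log2 fold change of 8-cell over 2-cell embryos for 37 of the genes in METTL7A embryos (upper point of each pair) and Control embryos (lower point), with bars of 1 SE and filled points for an adjusted p under 0.05. KAT2B lies far to the right in both treatments (2.92 with METTL7A and 2.86 in Control), and BRD2 and BRD3 lie at -0.33 and -0.67 in METTL7A embryos and at -1.60 and -1.96 in Control.

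Among the p300/CBP and GNAT writers, KAT2B had 15.7 and 8.12 CPM in METTL7A 8-cell and 1.31 and 1.81 CPM in METTL7A 2-cell embryos. Control embryos had 16.2 and 6.69 CPM at the 8-cell and 1.53 and 1.60 CPM at the 2-cell stage. The stages did not overlap in either treatment, and the log2 fold changes were 2.92 ± 0.60 (adjusted p = 0.00466) with METTL7A and 2.86 ± 0.60 (adjusted p = 0.00378) in Control. They were 2.32 with METTL7A without METTL7A 8-cell replicate 1, and 2.08 in Control without Control 8-cell replicate 1. KAT2A, with the per-library levels given above, had a log2 fold change of -0.34 with METTL7A (adjusted p = 0.582) and of -2.72 ± 0.49 in Control (adjusted p = 0.00184), or -3.61 without Control 8-cell replicate 2. The Control 2-cell pair was higher than the 6 other libraries, which lay between 11.4 and 41.9 CPM.

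EP300 rose with METTL7A, by a log2 fold change of 2.20 ± 0.39 (adjusted p = 0.00223), and had a value of 0.36 in Control (adjusted p = 0.44). CREBBP had -0.46 with METTL7A (adjusted p = 0.265) and fell by 1.78 on the log2 scale in Control (adjusted p = 0.00175). KAT14 had 15.7 and 36.5 CPM in METTL7A 8-cell and 3.98 and 4.47 CPM in METTL7A 2-cell embryos, and rose by 2.62 ± 0.52 (adjusted p = 0.00374). In Control, KAT14 had 13.0 and 7.81 CPM at the 8-cell and 8.21 and 9.87 CPM at the 2-cell stage, which overlap (adjusted p = 0.744). In METTL7A embryos the EP300, KAT14, KAT7 and SIRT1 calls were kept in all 15 alternatives, although KAT14 had 1.85 and SIRT1 2.61 without METTL7A 8-cell replicate 2. That for KAT2B was lost without METTL7A 2-cell replicate 1 (2.66, adjusted p = 0.0563).

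Of the 5 MYST writers, KAT7, the HBO1 enzyme, fell in both treatments. It had 92.4 and 98.1 CPM in METTL7A 8-cell and 273 and 354 CPM in METTL7A 2-cell embryos, with a log2 fold change of -1.72 ± 0.31 (adjusted p = 0.00242). In Control, KAT7 had 69.3 and 108 CPM at the 8-cell and 281 and 285 CPM at the 2-cell stage, with -1.67 ± 0.31 (adjusted p = 0.00206). KAT5 had -0.60 with METTL7A (adjusted p = 0.158) and fell by 1.48 on the log2 scale in Control (adjusted p = 0.00423). KAT8 did not pass the test with METTL7A (0.97, adjusted p = 0.0554) or in Control (0.39, adjusted p = 0.375).

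KAT6A, the MOZ enzyme, had 55.2 and 44.4 CPM in METTL7A 8-cell and 23.6 and 28.9 CPM in METTL7A 2-cell embryos, and 33.6 and 47.2 CPM in Control 8-cell and 32.3 and 32.6 CPM in Control 2-cell embryos. It rose by 0.92 ± 0.32 with METTL7A (adjusted p = 0.044), a call kept in 5 of 15 alternatives. The adjusted p was between 0.0937 and 0.25 without any 1 of the METTL7A libraries and 0.166 or 0.167 without 1 of the Control 2-cell libraries. It was 0.156 with no low-count filter and 0.127 with the injected transcript left out of library sizes. KAT6B, the MORF enzyme and paralogue of KAT6A, had 0.10 with METTL7A and -0.21 in Control, neither past the test.

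Of the 3 coactivators, which recruit p300 and CBP to nuclear receptors, NCOA1 and NCOA2 fell in Control and NCOA3 did not pass the test. NCOA2 had 79.1 and 85.2 CPM in METTL7A 8-cell and 151 and 176 CPM in METTL7A 2-cell embryos, with a log2 fold change of -0.99 (adjusted p = 0.0401). Control embryos had 37.5 and 72.1 CPM at the 8-cell and 262 and 266 CPM at the 2-cell stage, with -2.27 ± 0.35 (adjusted p = 0.00084), and with -2.87 without Control 8-cell replicate 2. The stages did not overlap in either treatment. The METTL7A call was lost without any 1 of the METTL7A libraries (adjusted p = 0.0945 to 0.19) or Control 2-cell libraries (0.0544 to 0.0548). NCOA1 fell in Control (-1.17, adjusted p = 0.0328), a call lost without Control 8-cell replicate 1 (adjusted p = 0.0929) or either Control 2-cell library (0.119 and 0.0894). NCOA3 had -0.75 in Control (adjusted p = 0.0534).

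The class I deacetylases did not pass the test between stages in Control, with log2 fold changes between -0.05 and 0.53 and adjusted p-values between 0.204 and 0.909. In METTL7A embryos HDAC3 fell by 1.78 ± 0.50 on the log2 scale (adjusted p = 0.0196). That call was lost without any 1 of the METTL7A libraries (adjusted p = 0.0655 to 0.135). HDAC1, HDAC2 and HDAC8 did not pass with METTL7A (-0.04, 0.37 and -0.82).

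Class IIa deacetylases, which have weak activity of their own and act with HDAC3 in corepressor complexes, changed in both directions. HDAC7 had 13.4 and 10.6 CPM in METTL7A 8-cell and 39.0 and 37.8 CPM in METTL7A 2-cell embryos, a log2 fold change of -1.68 (adjusted p = 0.0479). In Control it had 5.56 and 26.8 CPM at the 8-cell and 102 and 113 CPM at the 2-cell stage, with -2.73 ± 0.61 (adjusted p = 0.00523), with -2.02 without Control 8-cell replicate 1 and with -4.32 without Control 8-cell replicate 2. The Control call was lost with only the Control groups in the model (adjusted p = 0.0571). The METTL7A call was lost without any 1 of the METTL7A libraries (adjusted p = 0.142 to 0.228).

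HDAC9 had 20.8 and 25.7 CPM in METTL7A 8-cell and 54.4 and 51.2 CPM in METTL7A 2-cell embryos (-1.18, adjusted p = 0.0577), and 7.80 and 21.1 CPM in Control 8-cell and 49.5 and 51.1 CPM in Control 2-cell embryos. It fell in Control (-1.80, adjusted p = 0.00861, and -2.74 without Control 8-cell replicate 2). With only the Control groups in the model HDAC9 was not called (adjusted p = 0.0602). HDAC5 had 3.47 and 7.37 CPM in METTL7A 8-cell and 0.512 and 1.06 CPM in METTL7A 2-cell embryos, and rose by 2.76 ± 0.70 (adjusted p = 0.0123). This was lost without METTL7A 8-cell replicate 2 (2.07, adjusted p = 0.0884), METTL7A 2-cell replicate 1 (2.29, adjusted p = 0.107) or METTL7A 2-cell replicate 2 (3.36, adjusted p = 0.0518). In Control, HDAC5 had 5.95 and 2.76 CPM at the 8-cell and 1.98 and 1.51 CPM at the 2-cell stage (adjusted p = 0.117). HDAC4 had few reads in all groups, at 0.171 to 1.68 CPM, and did not pass in any comparison.

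HDAC10, a class IIb enzyme known to deacetylate polyamines, fell between stages in both treatments. It had 1.77 and 1.59 CPM in METTL7A 8-cell and 4.72 and 8.41 CPM in METTL7A 2-cell embryos, with a log2 fold change of -1.96 ± 0.58 (adjusted p = 0.0241). In Control it had 1.24 and 0.411 CPM at the 8-cell and 16.7 and 17.6 CPM at the 2-cell stage, with -4.36 ± 0.63 (adjusted p = 0.000675), and with -5.38 without Control 8-cell replicate 1 and -3.84 without Control 8-cell replicate 2. The METTL7A call was lost without METTL7A 8-cell replicate 1 (adjusted p = 0.0939), METTL7A 8-cell replicate 2 (0.118) or METTL7A 2-cell replicate 2 (0.168). HDAC11, the class IV enzyme, fell in Control (-1.70, adjusted p = 0.0226), with -2.68 without Control 8-cell replicate 2. That call was lost without either Control 2-cell library (adjusted p = 0.0849 and 0.0873). HDAC6, the tubulin deacetylase, had -0.01 in both treatments.

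Of the 7 sirtuins, SIRT1 rose over the stages with METTL7A, by 3.23 ± 0.48 on the log2 scale (adjusted p = 0.000853), and had 1.01 ± 0.44 in Control (adjusted p = 0.0815). The 2-cell levels of SIRT1 lay between 36.5 and 47.6 CPM in all 4 libraries, below each 8-cell library. SIRT6, a chromatin-bound deacetylase of histone H3, fell in Control (-1.58, adjusted p = 0.0161), but not without either Control 2-cell library (adjusted p = 0.0916 and 0.0959). The mitochondrial sirtuins SIRT3, SIRT4 and SIRT5 had log2 fold changes between -0.06 and 0.99 and did not pass in either treatment, nor did SIRT2 or the nucleolar SIRT7.

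Among the readers, the BET proteins BRD2 and BRD3, which bind acetylated histone H4, fell in Control. BRD3 had 29.2 and 38.1 CPM in METTL7A 8-cell and 45.7 and 61.1 CPM in METTL7A 2-cell embryos (-0.67, adjusted p = 0.174). In Control, BRD3 had 16.7 and 31.8 CPM at the 8-cell and 93.8 and 95.2 CPM at the 2-cell stage, with -1.96 ± 0.37 (adjusted p = 0.00243). BRD2 had -0.33 with METTL7A (adjusted p = 0.557) and -1.60 in Control (adjusted p = 0.0114, and -2.32 without Control 8-cell replicate 2). Its Control call was lost with only the Control groups in the model (adjusted p = 0.0508).

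BRD8 had 309 and 563 CPM in METTL7A 8-cell and 162 and 169 CPM in METTL7A 2-cell embryos, and 135 and 283 CPM in Control 8-cell and 189 and 178 CPM in Control 2-cell embryos. It rose with METTL7A (1.40 ± 0.41, adjusted p = 0.0238) and overlapped between stages in Control (0.19, adjusted p = 0.717). The METTL7A call was lost without METTL7A 8-cell replicate 2 (0.85, adjusted p = 0.225), either METTL7A 2-cell library (0.147 and 0.139) or either Control 2-cell library (0.0533 each).

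BRD1, a scaffold of KAT7 complexes, had 3.47 and 0.168 CPM in METTL7A 8-cell and 8.65 and 13.4 CPM in METTL7A 2-cell embryos, with a log2 fold change of -2.58 (adjusted p = 0.0477). In Control it had 3.99 and 2.35 CPM at the 8-cell and 20.0 and 20.3 CPM at the 2-cell stage, with -2.67 (adjusted p = 0.0307). The METTL7A value rested on a library with 2 reads of the gene, METTL7A 8-cell replicate 2, and was -1.71 without it (adjusted p = 0.0776) and -6.03 without METTL7A 8-cell replicate 1. It was lost without METTL7A 2-cell replicate 1 (adjusted p = 0.1), METTL7A 2-cell replicate 2 (0.202) or either Control 2-cell library (0.0560 and 0.0558), and the Control call without any 1 of the 2-cell libraries (0.0573 to 0.0748). BRD9, a SWI/SNF subunit, fell in Control (-1.31, adjusted p = 0.00562, and 0.0504 without Control 2-cell replicate 2), and BRD7, also a SWI/SNF subunit, did not pass in either treatment.

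The difference of the METTL7A effect between stages, 8-cell minus 2-cell, asks whether a gene responds differently at the 2 stages. None of the 38 genes was called by edgeR, as 0.0124% of all genes were. At an unadjusted p under 0.05 there were 12, of which 11 had a more positive effect at the 8-cell stage (28.9% of the 38, against 6.97% of all genes) and 1 a more negative one. Among the largest positive differences on the log2 scale were 2.42 ± 0.70 for KAT14, 2.40 ± 0.81 for HDAC10, 2.38 ± 0.66 for KAT2A, 2.22 ± 0.63 for SIRT1 and 1.84 ± 0.53 for EP300. HDAC3 had the negative one, -2.00 ± 0.69. The adjusted p-values of these 6 genes ran from 0.192 to 0.225.

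The DESeq2 test of this difference called 5 of the 38, all more positive at the 8-cell stage, among them EP300, SIRT1, KAT2A and KAT14 (13.2%, against 1.38% of all genes). In edgeR, 18 of the 38 were called without Control 8-cell replicate 2, where 26.1% of all genes were called. The median difference was 0.61 for the 38 genes and 0.13 for all genes. The gap between the 2 medians stayed between 0.48 and 0.50 in all 4 scalings.

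The partners of these enzymes were read from 4 lists. Among 35 subunits of deacetylase complexes and 51 of acetyltransferase complexes, 0 were called by edgeR between METTL7A and Control at the 8-cell stage. At an unadjusted p under 0.05 there were 7 and 12, against 26.6% of all genes, and the DESeq2 test called 2 and 2, against 14.6% of all genes. At the 2-cell stage 0 were called by edgeR in all 4 lists. There, 18 had an unadjusted p under 0.05, 16 of them lower with METTL7A (5.49% of all genes were lower at that level), and the DESeq2 test called 4 (1.08% of all genes). Of 27 other readers of acetylated lysine, 2 were higher with METTL7A at the 8-cell stage, or 7.41% against 0.737% of all genes. These were the chromatin remodelling subunit BAZ1A (1.45, adjusted p = 0.0436) and the super elongation complex subunit MLLT3 (1.63, adjusted p = 0.0485). BAZ1A had 423 and 765 CPM with METTL7A and 193 and 241 CPM in Control, and MLLT3 had 114 and 149 CPM with METTL7A and 26.3 and 58.5 CPM in Control. Neither was called without Control 8-cell replicate 1 (adjusted p = 0.0946 and 0.0735), and MLLT3 had 2.34 without Control 8-cell replicate 2. The count without Control 8-cell replicate 2 was 15 of the deacetylase complex subunits, 25 of the acetyltransferase complex subunits and 15 of the other readers, where 40.8% of all genes were called.

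Of the genes that supply acetyl-CoA and NAD, 5 of 16 were lower with METTL7A at the 8-cell stage and 0 higher, against 4.55% and 0.737% of all genes. The list median was -0.48, against 0.14 for all genes. The DESeq2 test called 5 lower and 2 higher (10.9% and 3.73% of all genes), and 5 lower and 3 higher had an unadjusted p under 0.05 in edgeR (16% and 10.6% of all genes). ACSS2, which makes acetyl-CoA from acetate, had 1.62 and 1.76 CPM with METTL7A and 63.0 and 15.7 CPM in Control (-4.54, adjusted p = 0.0194). PDHB, a subunit of pyruvate dehydrogenase, had 16.0 and 10.5 CPM with METTL7A and 172 and 35.3 CPM in Control (-2.97, adjusted p = 0.0438). SLC25A1, the mitochondrial citrate carrier, had 4.95 and 6.37 CPM with METTL7A and 54.4 and 13.0 CPM in Control (-2.57, adjusted p = 0.0478). NADSYN1, NAD synthetase, had 0 counts with METTL7A and 147 and 18 in Control, which is at least 40.2-fold lower against a floor of 3 counts over the METTL7A pair (adjusted p = 0.034). That bound is 8.97-fold without Control 8-cell replicate 1 and 70.1-fold without Control 8-cell replicate 2. QPRT, an enzyme of NAD synthesis from tryptophan, had 1 count with METTL7A and 646 in Control (adjusted p = 0.0248).

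In all 5 supply genes the higher Control value was in replicate 1, where the somatic markers summed to 6493 CPM, against 1235 CPM in Control replicate 2 and 222 and 245 CPM with METTL7A. The part of those markers was not tested, and fits without replicate 1 still hold a Control library with raised markers. Without Control 8-cell replicate 1, 2 of the 5 calls were left, ACSS2 (-3.22, adjusted p = 0.00712) and QPRT (adjusted p = 0.0307). PDHB then had -1.42 (adjusted p = 0.12), SLC25A1 -1.20 (adjusted p = 0.0994) and NADSYN1 an adjusted p of 0.0943. Leaving out Control 8-cell replicate 2 instead gave 10 calls, 8 of them lower, where 20.8% of all genes were called lower and 20% higher. Without that library ACSS2 had -5.19, SLC25A1 -3.24 and PDHB -3.68. All 7 reader and supply genes called at the 8-cell stage lost the call without any 1 of the METTL7A libraries. Few genes of the whole table were called in those fits. BAZ1A and MLLT3 also lost it without either Control 2-cell library.

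Over the stages, all 4 partner lists had genes called in both directions. Of all genes, 23.1% were higher and 17.1% lower at the 8-cell stage with METTL7A, against 29.9% and 22.8% in Control. In METTL7A embryos 12 deacetylase complex subunits were higher and 4 lower at the 8-cell stage, against 9 and 8 in Control. MTA2 and MBD2, of the NuRD complex, rose in both treatments (3.61 and 3.61 with METTL7A, 3.95 and 3.61 in Control), and the corepressor subunit MIER2 fell in both (-2.83 with METTL7A and -3.40 in Control). The CoREST demethylase KDM1A fell with METTL7A (-1.67), and the CoREST-family subunit RCOR2 in Control (-3.30). Of acetyltransferase complex subunits, 17 were higher and 10 lower with METTL7A, against 17 and 14 in Control. ING2, a reader of methylated histone H3 that is known chiefly from the Sin3 deacetylase complex, rose in both (5.73 with METTL7A and 4.36 in Control), and BRPF3, a scaffold of KAT7 complexes, fell in both (-2.14 with METTL7A and -2.52 in Control). ING1, also of the Sin3 complex, rose with METTL7A (4.37), the histone H4 acetyltransferase HAT1 rose in Control (3.71), SUPT7L of the SAGA complex fell with METTL7A (-1.71) and the transcription cofactor HCFC1 fell in Control (-2.78).

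Of the other readers, 9 were higher and 5 lower at the 8-cell stage with METTL7A, against 8 and 10 in Control. BRDT, the BET reader known for its role in the testis, rose in both (5.98 with METTL7A and 4.03 in Control), and the corepressor TRIM28 fell in both (-1.49 with METTL7A and -2.41 in Control). BRDT had 72.4 and 131 CPM in METTL7A 8-cell and 1.54 and 1.68 CPM in METTL7A 2-cell embryos, and 11.8 and 35.9 CPM in Control 8-cell and 1.82 and 1.08 CPM in Control 2-cell embryos. BPTF, of the NURF remodeller, rose with METTL7A (3.26) and DPF2, of the BAF complex, fell with it (-1.70). In Control the leukocyte reader SP140 had 47.4 and 6.57 CPM at the 8-cell stage, higher in the library with most somatic markers, and at most 0.0825 CPM at the 2-cell stage, while MLLT1, the paralogue of MLLT3, fell (-3.09).

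The supply genes had 5 higher and 3 lower with METTL7A, against 9 and 3 in Control. DLD, the E3 subunit of pyruvate dehydrogenase, and the NAD synthesis enzyme NMNAT2 rose with METTL7A (3.82 and 3.12), and PDHB rose in Control (5.63). PDHX, another subunit of pyruvate dehydrogenase, fell in both (-2.22 with METTL7A and -1.67 in Control). ACLY, which makes acetyl-CoA from citrate, fell with METTL7A (-1.69), and the carnitine acetyltransferase CRAT fell in Control (-1.64). QPRT was at 0 counts in Control 2-cell embryos and at least 293-fold higher in Control 8-cell embryos, against a floor of 3 counts over the 2-cell pair. Of its 646 counts at the 8-cell stage, 534 were in Control replicate 1, and the bound is 104-fold without that library and 473-fold without Control 8-cell replicate 2. Without Control 8-cell replicate 1 the Control counts for the 4 lists were 11 higher and 9 lower, 19 and 15, 7 and 10, and 7 and 4, in the order in which the lists are given here, and 27.2% and 23.7% of all genes.

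Several of these stage values moved with a library. With Control 8-cell replicate 1 left out, the values in Control were 4.06 for PDHB, 2.83 for MBD2 and -2.36 for CRAT, all still called. With Control 8-cell replicate 2 left out they were 6.31 for PDHB, 2.97 for BRDT, -3.77 for MLLT1, -4.00 for RCOR2 and -3.62 for HCFC1, also called. The CRAT call was lost without either Control 2-cell library (adjusted p = 0.0694 and 0.0726). In METTL7A embryos MTA2 had 2.55 and ING2 5.02 without METTL7A 8-cell replicate 2, and ING1 had 5.31 without METTL7A 2-cell replicate 1 and 3.74 without METTL7A 2-cell replicate 2. The TRIM28 call was lost without METTL7A 8-cell replicate 1 (adjusted p = 0.245), METTL7A 8-cell replicate 2 (-2.11, adjusted p = 0.0743) or METTL7A 2-cell replicate 2 (-0.66, adjusted p = 0.428), and TRIM28 had -2.08 without METTL7A 2-cell replicate 1. That for NMNAT2 was lost without METTL7A 8-cell replicate 2 (adjusted p = 0.0706), METTL7A 2-cell replicate 1 (0.0525) or METTL7A 2-cell replicate 2 (0.116). DPF2 was not called without either METTL7A 8-cell library or METTL7A 2-cell replicate 2 (adjusted p = 0.0557 to 0.0765). KDM1A and ACLY were not called without METTL7A 8-cell replicate 1 or METTL7A 2-cell replicate 2 (adjusted p = 0.0567 to 0.0895).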

How the data were processed

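PolyA RNA of whole embryos was amplified with a low-input kit and tagmented, per the labels' protocols, which describe no step that marks the strand. The table deposited by the authors holds raw read counts per gene, with no normalization. The submitters' processing notes name Trim Galore 0.6.10, FastQC, STAR 2.7.11b, Subread 2.0.6 and DESeq2 1.44.0; the genome build is not given in the sources used here. Columns were tied to samples by their names. An entry that names no gene held 0.184% to 0.95% of counts and was left out.

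The 8 libraries were fitted together in R 4.3.3 with edgeR 4.0.16 (quasi-likelihood, robust), limma 3.58.1, TMM factors and filterByExpr (minimum count 10, total 15), with 1 coefficient per group. Tests are 2-sided, with Benjamini-Hochberg adjustment over all 16149 genes and a threshold of 0.05. DESeq2 1.42.0 was an alternative. The steps were also run on simulated counts with the same spread for all genes and groups. That run cannot show how the test does where pairs spread unequally, as they do here. Fold bounds use a floor of 3 counts and cover counting error only.

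Genes were named by a rule: those called between treatments, up to 8 per direction called between stages, and 10 core genes; of partner lists, the 2 most changed in each direction. The genes and lists were chosen with earlier results of these data known. The ICM and TE table was not used here. The results of 1 of the 38 genes are not reported here beyond the counts.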

Additional observations from a re-analysis of the deposited data

How the results depend on the processing

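Each count of called genes was repeated under other settings. Between METTL7A and Control at the 8-cell stage, 2 of 38 genes were called, 1 with DESeq2 size factors and 0 with the 8-cell groups alone, and 0 to 19 when single libraries were left out (0.0114% to 40.8% of all genes). At the 2-cell stage the count was 0, but 1 with the DESeq2 test, 2 with no low-count filter, 9 with the 2-cell groups alone and 0 to 2 with single libraries left out (0.0113% to 0.297% of all genes). Between stages it was 13 in METTL7A embryos (5 to 19 with single libraries left out, and 18.7% to 54.3% of all genes) and 17 in Control (12 to 28, and 29.3% to 61.6%). For the difference of the effects it was 0, but 5 with the DESeq2 test, 7 with no low-count filter and 0 to 18 with single libraries left out (0% to 26.1%). Of the counts with single libraries left out, the highest came without Control 8-cell replicate 2, and at the 2-cell stage and between stages in METTL7A embryos was as high without Control 8-cell replicate 1. The cause was not tested. For the partner lists, a choice made after seeing the data, leaving out either Control 8-cell library at that stage gave 0 to 15 deacetylase complex subunits, 0 to 25 acetyltransferase complex subunits, 0 to 15 other readers and 2 to 10 supply genes. Between stages in Control both the list counts and the count over all genes changed less.

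The replicate numbers in the titles did not pair the libraries, with correlations of same-numbered deviations between -0.03 and 0.06. With the number as a replicate block the counts of called genes were 2, 0, 13, 17 and 0. The order is 8-cell, 2-cell, stages with METTL7A, stages in Control, and the difference. Over all genes the shares were 6.71%, 0.0124%, 40%, 51.4% and 0.149%. Over all genes, calls at the 8-cell stage numbered 854 (5.29%). They numbered 605 with DESeq2 size factors (3.75%) and 2357 with the DESeq2 test (14.6%). With no low-count filter there were 2767 (11.5%), and with the groups alone 283 (1.88%). At the 2-cell stage they numbered 2 (0.0124%), against 139 with the DESeq2 test (1.08%). There, no low-count filter gave 100 (0.415%), and the groups alone 1005 (7.17%). For the difference they numbered 2 (0.0124%), against 906 with the DESeq2 test (6.14%). It had 1354 with no low-count filter (5.62%) and 24 with the block (0.149%).

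Some values that were not called with all 8 libraries in the fit changed sign in another setting. At the 8-cell stage, leaving out Control replicate 1 or 2 gave HDAC2 values of 0.36 and -0.76 and KAT2A values of -0.14 and 1.26, and KAT5 had -0.00032 with the injected transcript left out of library sizes. At the 2-cell stage HDAC1 had -0.072 and KAT8 -0.051 with the Control pair summed. With single libraries left out, HDAC1 ran from -0.29 (without METTL7A 2-cell replicate 2) to 0.29, KAT8 from -0.18 (without METTL7A 2-cell replicate 1) to 0.25, and SIRT1 from -0.36 to 0.064 (without METTL7A 2-cell replicate 1). With 2 libraries a group, and pairs that spread as widely as Control 8-cell, a gene not called here may still differ. All 4 groups shared 1 estimate of the spread per gene. Chi-square per degree of freedom was 330 in the Control 8-cell pair and 2.48 in the Control 2-cell pair. It was 56.9 in the METTL7A 8-cell pair and 45.5 in the METTL7A 2-cell pair. For the spread of these libraries, the p-values at the 8-cell stage may therefore be too small, and those at the 2-cell stage too large. If the replicates are technical, the p-values at either stage may be too small for a difference between embryos.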
